A study of Homo sapiens with 12 samples.

Results

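The comparison described here covers the control PC9 cells of a study of the secreted and endoplasmic reticulum protein AGR2, at 24 h and at 72 h of exposure to gefitinib, and takes in 3 libraries at each time, 6 of the 12 in the series. PC9 is a human lung adenocarcinoma cell line with an activating mutation in the epidermal growth factor receptor (EGFR), and gefitinib is a small-molecule inhibitor of the EGFR kinase, applied at 300 nM in every group. The other 6 libraries came from AGR2-knockdown cells at 24 h and AGR2-overexpressing cells at 72 h, 3 of each, and total RNA was extracted with NucleoZOL throughout. Every library was drug-treated, so the comparison is of longer against shorter inhibition and has no untreated baseline. The control cells of the 2 times are labelled only as control: no source used here gives the control construct, the way it was introduced or any batch, and these cannot be told apart from time. Replicates are numbered but are not said to come from separate cultures, so p-values measure the spread between these libraries, which may be technical.

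EGFR is a receptor tyrosine kinase that, once a ligand such as amphiregulin or HB-EGF binds, or once an activating mutation holds it on, drives the RAS-RAF-MEK-ERK and PI3K-AKT pathways. ERK activity maintains transcription of immediate-early factors of the AP-1 group, of cyclin D1 and of its own brakes, among them the dual-specificity phosphatases and the Sprouty and SPRED proteins. Kinase inhibition in EGFR-mutant lung cancer cells shuts these outputs down and halts or kills most cells, while a drug-tolerant remainder can persist, and changes in adhesion, matrix and alternative receptor signalling are known in such persisting cells.

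Values are TPM, a transcript abundance corrected for transcript length and library total, deposited by the authors. Here each library was divided by 1 factor so that the median gene is level between libraries. Differences are log2(rescaled TPM + 1) at 72 h minus 24 h, with a standard error (SE) and a limma p-value adjusted over all tested genes by the Benjamini-Hochberg method, called below 0.05; the added 1 makes the difference understate the change of genes at low levels. The rescaling factors were 0.819 to 0.884 at 24 h and 1.16 to 1.18 at 72 h, so the deposited TPM of the typical gene were higher at 72 h, by a median of 0.34 on the log2 scale, and every direction below is relative to that shift. Mitochondrial transcripts made up 42.6% to 46.5% of deposited TPM at 24 h and 41.1% to 42.8% at 72 h, and nuclear protein-coding genes 23.9% to 26.8% and 30.2% to 31.3%. Pseudogenes held 24.8% to 26.6% at 24 h and 23.9% to 24.6% at 72 h. The number of genes at 1 TPM or more ran from 12130 to 13810 per library. Log2 profiles correlated across genes at 0.984 to 0.989 within the 24 h libraries, at 0.991 to 0.993 within the 72 h libraries and at 0.943 to 0.961 between times, so the 24 h libraries were the more spread. Read depth is unknown, because TPM keep no counts. The defining epithelial markers EPCAM, KRT7, KRT8, KRT18, KRT19 and CDH1 were all detected, with summed levels of 6680 to 8946 TPM at 24 h and 4802 to 5036 TPM at 72 h. Of the fibroblast markers only COL1A1 passed the minimum level, the 4 endothelial markers summed to at most 0.647 TPM, and PTPRC, the pan-leukocyte marker, did not exceed 0.0138 TPM in any library; CD68 (57.5 to 94.5 TPM), a lysosomal protein also made outside macrophages, was the main blood-list gene present.

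Of 13752 genes tested, 4103 (29.8%) were higher at 72 h and 3965 (28.8%) were lower, so a call in either direction was the common outcome (58.7%) and the size of a change says more than the call. Member counts of the gene lists below are to be read against these shares. Changes of at least 2-fold on the log2(rescaled TPM + 1) scale were fewer, with 309 genes (2.25%) higher and 511 (3.72%) lower. The lowest and highest libraries of the 2 times did not overlap for 9378 genes (68.2%). The first principal component held 75.5% of the variance and separated the times, with the 24 h libraries between -43.0 and -27.0 and the 72 h libraries between 31.7 and 33.1; the 24 h library at -43.0 was replicate 1.

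AGR2, a protein disulfide isomerase family member needed for mucin folding and the gene engineered in the other cells, lies at chr7:16791811-16833433 (GRCh38, minus strand). Its level in the control libraries was 40.2, 36.3 and 35.9 TPM at 24 h and 7.32, 6.75 and 6.69 TPM at 72 h. All 24 h libraries lay far above all 72 h libraries, a 5.42-fold fall (log2 difference -2.28, SE 0.0654, adjusted p = 6.34e-05), and AGR2 was among the 12 largest falls in the comparison. On the same scale AGR2 averaged 0.558 ± 0.0768 TPM in the knockdown cells at 24 h and 9.55 ± 0.869 TPM in the overexpressing cells at 72 h, so the control level at 72 h lay between that of the knockdown and that of the control at 24 h. The overexpressing cells stood above their 72 h controls and below the 24 h controls.

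The largest rise among named genes was that of IGFBP5, an insulin-like growth factor binding protein, at chr2:216672105-216695549 on the minus strand of chromosome 2. Its level was 1.47, 1.92 and 2.03 TPM at 24 h and 36.7, 36 and 35.7 TPM at 72 h, a more than 20-fold rise (log2 difference 3.73, SE 0.0848, adjusted p = 5.77e-05). KRT4, a keratin of non-cornifying stratified epithelia, was at 2.25, 1.93 and 1.96 TPM at 24 h and 19, 16.8 and 16.4 TPM at 72 h (log2 difference 2.59, SE 0.0758, adjusted p = 6.34e-05). For both genes the 72 h libraries lay close together and well clear of the 24 h libraries. TGFB2, a ligand of the TGF-beta receptors at chr1:218345336-218444619, was at 2.27, 3.16 and 3.0 TPM at 24 h and 16.1, 16.2 and 16.8 TPM at 72 h (log2 difference 2.20, SE 0.0981, adjusted p = 0.000165). DUSP1, an immediate-early phosphatase that switches off MAP kinases, was at 69.99, 74.5 and 77.5 TPM at 24 h and 273, 275 and 283 TPM at 72 h (log2 difference 1.89, SE 0.0568, adjusted p = 6.36e-05). The immediate-early and inducible genes ATF3 and PTGS2 completed this group, ATF3, a stress-induced AP-1 family factor, rising from 1.09 ± 0.104 to 6.64 ± 0.202 TPM and PTGS2, the inducible prostaglandin synthase COX-2, from 7.44 ± 0.159 to 29.8 ± 0.414 TPM (mean ± SD, n = 3 each). RAB11FIP1, which acts in recycling of endosomes, went from 2.99, 5.68 and 5.34 TPM at 24 h to 24.1, 24.3 and 24.6 TPM at 72 h, FSTL1, a secreted follistatin-like glycoprotein, from 19, 23.1 and 21.2 TPM to 86.6, 85.5 and 85.6 TPM, and RRAD, a RAS-related small GTPase, from 2.39, 1.7 and 2.07 TPM to 9.1, 10.7 and 11.2 TPM. The pseudogenes HMGN2P4, HS6ST1P1 and ZDHHC20P4 made up the 12, and reads of a pseudogene can come from its parent gene; HMGN2P4 ranged from 0.0179 to 5.31 TPM among the 24 h libraries.

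Among the 12 largest falls, S100P, a calcium-binding S100 protein, was at 79.9, 61 and 56.8 TPM at 24 h and 12.3, 11.7 and 11.4 TPM at 72 h (log2 difference -2.37, SE 0.13, adjusted p = 0.000223). LGALS1, which encodes galectin-1, was at 96.1, 62.8 and 74.1 TPM at 24 h and 16.4, 17 and 16.2 TPM at 72 h (log2 difference -2.14, SE 0.151, adjusted p = 0.000358). TNNI2, the fast skeletal troponin I, was at 25.1, 18 and 18.2 TPM at 24 h and 4.1, 3.43 and 3.04 TPM at 72 h (log2 difference -2.24, SE 0.153, adjusted p = 0.000329). In each of these the 24 h libraries were the more scattered, with replicate 1 the highest. Lack of overlap between the groups was part of the rule that chose the 12. UPK3BL2, a uroplakin-like gene, went from 18, 11 and 13.4 TPM to 2.79, 1.27 and 1.65 TPM. The remaining falls were in genes at or near 0 at 72 h with wide spread at 24 h, and no fold is given for them: RCC2-AS1 was at 51.8, 14.7 and 3.75 TPM at 24 h, MYADM-AS2 at 15.4, 7.42 and 2.93 TPM, RPS26P19 at 16.4, 4.38 and 17.8 TPM, CEMP1 at 12.9, 5.07 and 11.1 TPM, FCF1P2 at 6.18, 9.72 and 2.26 TPM and FAM223A at 7.07, 4.59 and 4.13 TPM, and each was below 1 TPM in every 72 h library. RPS15AP12, a ribosomal protein pseudogene, was spread at 72 h instead, at 1.45, 4.97 and 0.806 TPM against 14.2, 12.3 and 15.2 TPM at 24 h. No source used here gives strandedness, and of the 24 genes IGFBP5, RAB11FIP1, TGFB2, FSTL1, DUSP1, PTGS2, RCC2-AS1, CEMP1, MYADM-AS2, FCF1P2, RPS15AP12, AGR2 and LGALS1 overlap an annotated gene on the opposite strand, from which their reads cannot be told apart; of the 197 genes whose change is described here, 112 do.

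**Figure D1:**
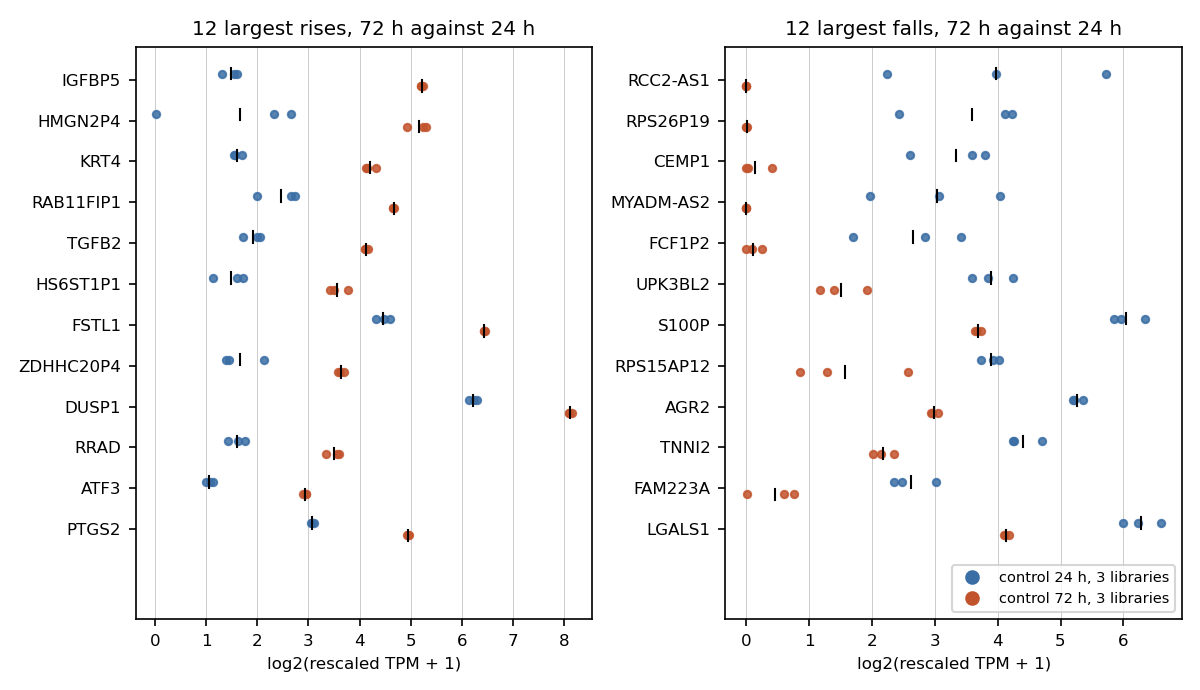
Level of the 12 largest rises (left) and 12 largest falls (right) as log2(rescaled TPM + 1); each point is 1 library, with 3 at 24 h and 3 at 72 h, and the short bar is the mean. The rule that chose the 24 genes required that the 2 times not overlap. RCC2-AS1 and HMGN2P4 have the most scattered 24 h points, whereas the pseudogene RPS15AP12 is spread at 72 h instead.

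Of the 5 tested ligands of EGFR, 4 rose, and changes in the receptors were smaller. Of the 9 tested genes of the EGFR family list, 6 were called higher and 1 lower, with a median of 0.53 against -0.01 over all tested genes. HBEGF, the heparin-binding ligand, was at 1.35, 1.42 and 1.5 TPM at 24 h and 7.46, 7.42 and 7.08 TPM at 72 h (log2 difference 1.78, SE 0.0499, adjusted p = 6.34e-05). EREG, epiregulin, was at 0.80, 0.806 and 0.753 TPM at 24 h and 2.91, 2.91 and 2.84 TPM at 72 h (log2 difference 1.12, SE 0.0446, adjusted p = 0.000143). The ligands AREG, amphiregulin, and TGFA rose from 2.2 ± 0.316 to 4.2 ± 0.143 TPM and from 2.59 ± 0.148 to 4.53 ± 0.171 TPM, by 0.70 and 0.62 on the log2 scale. For these 4 ligands every 72 h library was above every 24 h library. EPGN, epigen, was at 2.29, 3.09 and 3.03 TPM at 24 h and 2.44, 2.89 and 2.68 TPM at 72 h, with overlapping groups and no call (adjusted p = 0.721). EGFR itself was at 11.2, 14.2 and 12.9 TPM at 24 h and 18.1, 19.1 and 19.1 TPM at 72 h (log2 difference 0.53, SE 0.088, adjusted p = 0.00358), and its feedback inhibitor ERRFI1 rose by 0.25. The call of ERRFI1 was lost without 24 h replicate 3 or 72 h replicate 1, 2 or 3 (adjusted p = 0.0607 to 0.089). ERBB2 averaged 13.1 ± 0.561 TPM at 24 h and 13.8 ± 0.157 TPM at 72 h and was not called (adjusted p = 0.27). ERBB3, the kinase-impaired partner of ERBB2, fell by 0.19 on this scale (adjusted p = 0.032), from 26.9 ± 1.64 to 23.5 ± 0.0939 TPM, but its deposited TPM, without rescaling, were higher at 72 h by 0.25, so its direction depends on the scaling. Its call was kept in 9 of 19 alternatives, and was lost with the replicate number as a block (adjusted p = 0.0624) and without 24 h replicate 3 or 72 h replicate 1, 2 or 3 (adjusted p = 0.0705 to 0.104).

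Genes read as outputs of ERK signalling mostly stood higher at the later time. Of the 12 tested in the ERK list, 9 were called higher and 1 lower, with a median of 0.52. The highest in level was IER3, an immediate-early survival gene, at 365, 320.1 and 309 TPM at 24 h and 753, 736 and 698 TPM at 72 h (log2 difference 1.14, SE 0.0791, adjusted p = 0.000342). DUSP5, a nuclear ERK phosphatase, was at 3.31, 3.49 and 3.73 TPM at 24 h and 8.77, 8.74 and 8.62 TPM at 72 h (log2 difference 1.11, SE 0.0522, adjusted p = 0.000179). CCND1, cyclin D1, was at 77.8, 75.7 and 80.4 TPM at 24 h and 136, 137 and 138 TPM at 72 h (log2 difference 0.81, SE 0.0478, adjusted p = 0.000261). The 3 genes had no overlap between times. SPRY2 and SPRED3, inhibitors of receptor signalling to RAS, rose by 0.63 and 0.70, the receptor EPHA2 by 0.61, the phosphatase DUSP4 by 0.42, SPRED1 by 0.37 and MYC by 0.25. SPRY1 was the exception, at 4.28, 4.97 and 4.71 TPM at 24 h and 2.86, 2.26 and 2.49 TPM at 72 h (log2 difference -0.68, SE 0.0829, adjusted p = 0.00129). DUSP6, the cytoplasmic ERK phosphatase often used as a readout of ERK activity, stayed near 1 TPM, at 1.06, 1.36 and 0.867 TPM at 24 h and 1.09, 0.954 and 0.494 TPM at 72 h, with overlapping groups (difference -0.19, SE 0.152, adjusted p = 0.315). PHLDA1, a pleckstrin-like protein induced by ERK, averaged 25.3 ± 0.763 TPM at 24 h and 24.6 ± 0.235 TPM at 72 h, also without a call (adjusted p = 0.512). The list thus did not move as 1 block: ERK's direct phosphatases DUSP4 and DUSP5 rose, DUSP6 was not called and SPRY1 fell.

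Of the 16 AP-1 and immediate-early genes tested, 14 were called higher and none lower, with a median of 0.77. Besides ATF3, KLF6, a zinc-finger transcription factor, was at 11.5, 12.8 and 12.8 TPM at 24 h and 44.2, 43.7 and 46.4 TPM at 72 h (log2 difference 1.78, SE 0.0597, adjusted p = 9.95e-05). The AP-1 subunits FOSB, FOSL1 and FOSL2 rose from 9.48 ± 0.81 to 28.2 ± 1.63 TPM, from 10.2 ± 0.758 to 25.8 ± 1.48 TPM and from 29.3 ± 2.16 to 58.9 ± 1.05 TPM, with differences of 1.48, 1.26 and 0.98. KLF2, a Kruppel-like factor, rose by 0.92, from a level under 1 TPM at 24 h. BTG2, an antiproliferative early gene chosen from the p53 target list below, rose by 0.77. No 72 h library of these genes reached down into the 24 h range.

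**Figure D2:**
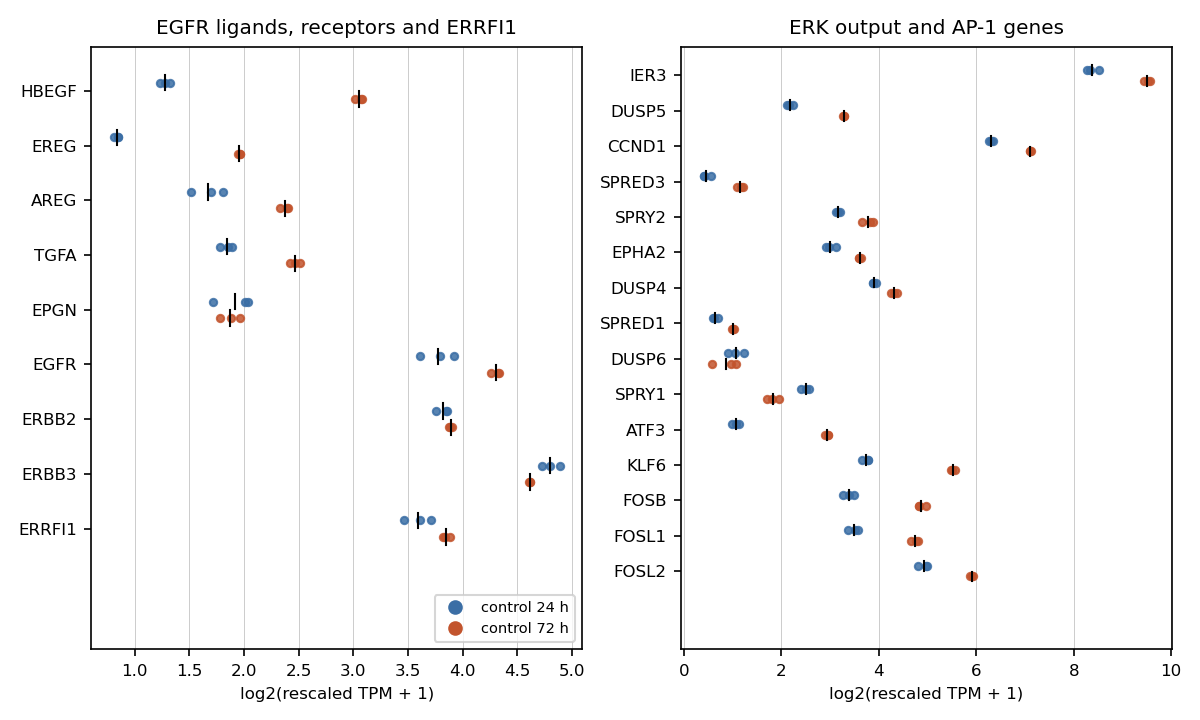
Level of EGFR ligands, receptors and ERRFI1 (left) and of ERK output and AP-1 genes (right) as log2(rescaled TPM + 1); each point is 1 of 3 libraries per time and the short bar is the mean. HBEGF and EREG show the widest gaps on the left, EPGN and DUSP6 overlap between times, and ERBB3 and SPRY1 lie lower at 72 h.

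A further list held receptors and ligands that can stand in for EGFR, together with insulin-like growth factor binding proteins and IRS1. Of this list, 11 were tested, and 8 were called higher and 1 lower (median 0.48). These calls include the binding proteins, which are neither receptors nor receptor ligands. Next to IGFBP5, the abundant IGFBP3 was at 1927, 1890.1 and 1989 TPM at 24 h and 3739, 3692 and 3654 TPM at 72 h (log2 difference 0.93, SE 0.0526, adjusted p = 0.000225). IRS1, the insulin receptor substrate, rose from 2.7 ± 0.313 to 5.27 ± 0.219 TPM, MET, the hepatocyte growth factor receptor, from 6.03 ± 0.476 to 10.2 ± 0.13 TPM, and GAS6, the ligand of AXL, from 8.76 ± 0.975 to 13.6 ± 0.172 TPM. IGFBP2 went the other way, at 6.59, 4.37 and 5.37 TPM at 24 h and 3.24, 2.87 and 3.12 TPM at 72 h (log2 difference -0.65, SE 0.129, adjusted p = 0.00695). Binding proteins of insulin-like growth factors therefore split, with IGFBP3 and IGFBP5 higher and IGFBP2 lower.

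The cell cycle genes divided by phase. Of 26 replication and S phase genes tested, 20 were called higher and 1 lower, with a median of 0.41, and of 29 tested genes of mitosis and G2/M, 1 was called higher and 24 lower, with a median of -0.62. In bulk RNA, fewer cells in a phase and less RNA per cell cannot be told apart. The promoters of the genes with the largest changes in each list that the sequence table holds are shown because these groups are known to be regulated through different promoter elements: many G2/M genes carry CCAAT boxes and a cell cycle genes homology region (CHR), bound by the MuvB-containing DREAM and MYB-MuvB complexes, while many S phase genes carry E2F sites. Each line gives the 120 bases before the annotated start (RefSeq, GRCh38.p14, in the gene's direction, with the strand named), and capitals mark CCAAT, a CHR match (the letters TTTGAA, or the variant with letters TTTAAA) or an E2F-type match (the letters TTTGGCG, the variant with letters TTTCCCG, or the variant with letters TTTCGCG) on either strand. The first 4 are G2/M genes and the last 3 S phase genes.
HMMR (chr5:163460512-163460631, plus strand): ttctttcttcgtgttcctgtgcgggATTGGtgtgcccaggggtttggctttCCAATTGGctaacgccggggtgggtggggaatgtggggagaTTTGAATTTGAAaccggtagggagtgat
KIF20A (chr5:138178992-138179111, plus strand): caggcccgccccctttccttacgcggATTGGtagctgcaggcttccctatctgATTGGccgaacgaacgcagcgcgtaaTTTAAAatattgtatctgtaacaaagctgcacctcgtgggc
CCNB2 (chr15:59105026-59105145, plus strand): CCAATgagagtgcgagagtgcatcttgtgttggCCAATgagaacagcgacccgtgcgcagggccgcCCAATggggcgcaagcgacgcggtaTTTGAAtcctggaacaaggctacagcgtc
CCNB1 (chr5:69167030-69167149, plus strand): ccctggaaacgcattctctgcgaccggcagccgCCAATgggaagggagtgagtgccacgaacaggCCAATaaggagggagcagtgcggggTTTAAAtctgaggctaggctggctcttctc
E2F1 (chr20:33686386-33686505, minus strand): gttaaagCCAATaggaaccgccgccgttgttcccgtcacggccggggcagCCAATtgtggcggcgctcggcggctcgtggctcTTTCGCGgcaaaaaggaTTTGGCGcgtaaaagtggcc
CDC6 (chr17:40287759-40287878, plus strand): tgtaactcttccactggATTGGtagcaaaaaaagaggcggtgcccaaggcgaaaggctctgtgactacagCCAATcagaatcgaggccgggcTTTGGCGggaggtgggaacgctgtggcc
MCM2 (chr3:127598291-127598410, plus strand): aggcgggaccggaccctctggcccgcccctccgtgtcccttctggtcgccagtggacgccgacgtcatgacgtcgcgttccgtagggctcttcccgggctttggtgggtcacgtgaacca
All 4 G2/M promoters held CCAAT and a CHR match, with the nearest CHR match starting 22 to 41 bases before the start. HMMR held overlapping CCAAT matches on opposite strands and a pair of adjacent CHR matches. E2F1 and CDC6 held CCAAT and E2F-type matches, and MCM2 held none of the searched letters in this window. Over 250 bases before the start, a CCAAT match was found in 20 of 23 G2/M genes with a promoter in the table (87.0%) and 13 of 22 S phase genes (59.1%), against 35.3% of 8391 tested genes. A CHR match was found in 16 of the 23 (69.6%) and 4 of the 22 (18.2%), against 13.1%, and an E2F-type match in 3 of the 23 and 11 of the 22 (50%), against 9.99%. Over all 27305 promoters in the table the shares were 33.0%, 22.1% and 6.21%. A match is a description of letters, not a bound site.

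HMMR, a spindle and hyaluronan-binding protein, had the largest fall on the G2/M list, at 6.08, 8.75 and 7.63 TPM at 24 h and 2.63, 2.7 and 2.43 TPM at 72 h (log2 difference -1.23, SE 0.12, adjusted p = 0.000703). KIF20A, a kinesin of cytokinesis, was at 23.3, 27.5 and 27 TPM at 24 h and 11.5, 12.3 and 12.7 TPM at 72 h (log2 difference -1.03, SE 0.0791, adjusted p = 0.000404). CCNB1, the mitotic cyclin B1, was at 54.4, 52.9 and 49.3 TPM at 24 h and 25.1, 25.9 and 26.3 TPM at 72 h (log2 difference -0.99, SE 0.0561, adjusted p = 0.000225). In each, all 72 h libraries lay well below all 24 h libraries. CCNB2, the related cyclin B2, fell from 9.34 ± 0.231 to 4.07 ± 0.181 TPM, CDK1, the kinase that cyclin B activates, from 18.3 ± 1.73 to 9.23 ± 0.72 TPM, and NEK2, a centrosomal kinase, from 8.29 ± 0.639 to 3.94 ± 0.434 TPM. MYBL2 is named here because it was the only member called higher, and so was chosen after its value was seen. It is itself an E2F target and encodes the MYB protein of the MYB-MuvB complex. Its level rose from 3.74 ± 0.259 to 6.23 ± 0.0792 TPM (difference 0.61, adjusted p = 0.000617). With no rescaling of the deposited TPM, 16 members were called lower and 4 higher, and with quantile normalisation 23 and 1.

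On the S phase side, E2F1, the transcription factor that activates this group, was at 4.29, 3.58 and 3.77 TPM at 24 h and 9.28, 9.1 and 9.78 TPM at 72 h (log2 difference 1.09, SE 0.0696, adjusted p = 0.000296). MCM2, a subunit of the replicative helicase, was at 4.99, 5.11 and 5.9 TPM at 24 h and 12.1, 12 and 12.4 TPM at 72 h (log2 difference 1.06, SE 0.0674, adjusted p = 0.000296). CDC6, the helicase loader, was at 1.97, 2.1 and 2.14 TPM at 24 h and 5.15, 5.64 and 5.49 TPM at 72 h (log2 difference 1.07, SE 0.0532, adjusted p = 0.000197). The libraries of each time were tight and did not overlap. MCM4 rose from 7.39 ± 0.313 to 13.7 ± 0.127 TPM, the flap endonuclease FEN1 from 26.7 ± 0.564 to 45.3 ± 0.471 TPM and the GINS subunit GINS4 from 1.54 ± 0.0932 to 3.04 ± 0.165 TPM. RFC4, a subunit of the clamp loader, was the only member called lower, by 0.27 (adjusted p = 0.0261), and is likewise named after its value was seen; unrescaled it was 0.091 higher, and its call was lost without 24 h replicate 1 or 2 or 72 h replicate 2 or 3 (adjusted p = 0.0566 to 0.0901).

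**Figure D3:**
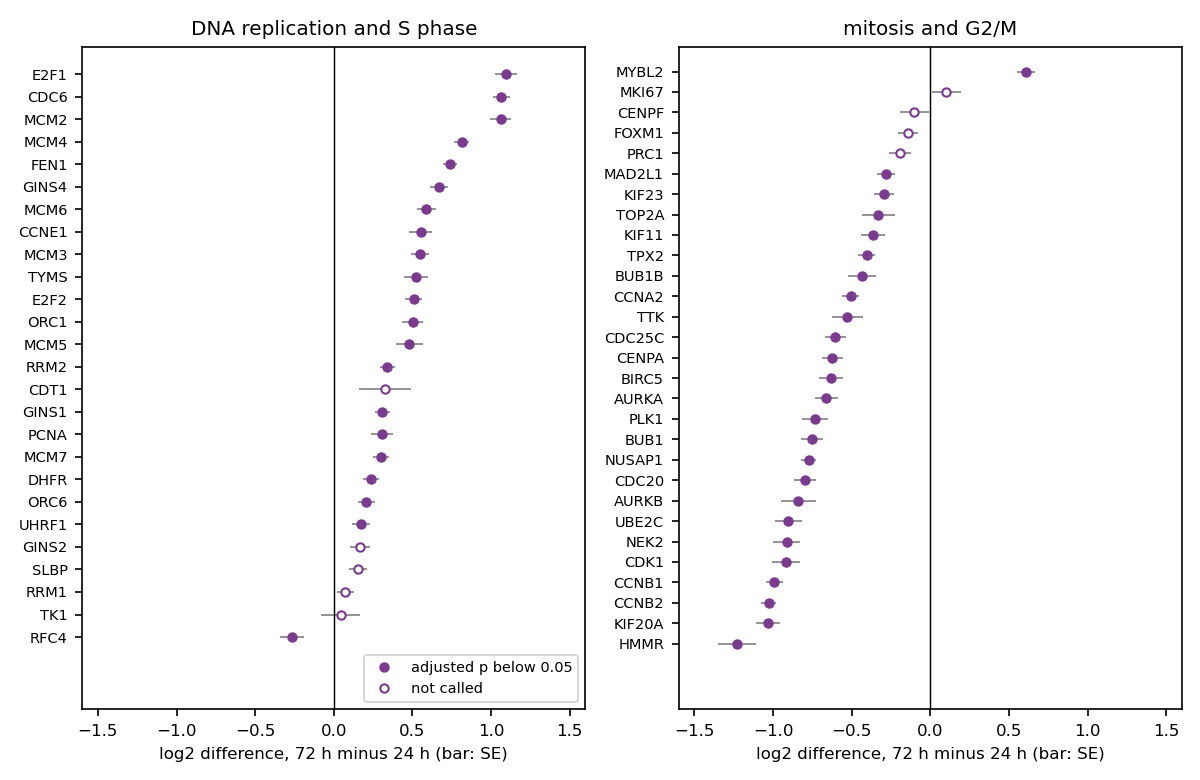
Difference in log2(rescaled TPM + 1), 72 h minus 24 h, of every tested gene of the S phase list (left) and the G2/M list (right), with the SE as a bar (n = 3 libraries per time); filled points were called. S phase genes lie mainly to the right of 0, up to 1.09 for E2F1, and G2/M genes mainly to the left, down to -1.23 for HMMR.

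Genes that act before replication were mixed. Of 14 tested G1 cyclins, kinases and inhibitors, 5 were called higher and 3 lower, but only 1 was called lower when 72 h replicate 1, 2 or 3 was left out, and 11 were called higher and 1 lower without rescaling. CDKN1A, the p53-induced inhibitor p21, was at 3.62, 3.94 and 4.34 TPM at 24 h and 7.59, 7.49 and 7.73 TPM at 72 h (log2 difference 0.79, SE 0.0649, adjusted p = 0.000449). CDK6 rose from 0.922 ± 0.0928 to 1.66 ± 0.0828 TPM and E2F3 from 0.858 ± 0.18 to 1.62 ± 0.0635 TPM. CDKN2C, the CDK4 and CDK6 inhibitor p18, fell from 2.76 ± 0.0828 to 1.43 ± 0.0756 TPM, and CDKN1C, the inhibitor p57, was at 16.4, 10.4 and 14.2 TPM at 24 h and 8.97, 8.4 and 10.2 TPM at 72 h (log2 difference -0.51, SE 0.167, adjusted p = 0.0408), with its lowest 24 h library only slightly above the highest 72 h library; it was not called without 24 h replicate 1 or 3 or 72 h replicate 1, 2 or 3 (adjusted p = 0.0584 to 0.116). Of 16 tested p53 targets, 11 were called higher and 3 lower (median 0.36). Leaving out 72 h replicate 1, 2 or 3 gave 8, 9 and 10 called higher, with 2 lower each time. With the replicate number as a block 9 were called higher and 3 lower, and without rescaling 12 and 1. The nuclease AEN rose by 1.04 and the stress sensor SESN2 by 0.81, whereas GADD45B fell by 0.72. TP53I3, a quinone oxidoreductase, fell by 0.95, from 35 ± 3.84 to 17.5 ± 0.582 TPM. GADD45A, chosen from the YAP and TEAD target list below, rose by 0.66.

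The BCL2 family decides whether mitochondria release cytochrome c, and the BH3-only member BIM, encoded by BCL2L11, is a known mediator of cell death under EGFR inhibition. Of its 13 tested genes, 5 were called higher and 2 lower, a share of calls close to the 58.7% of all tested genes, but only 3 were called higher when 72 h replicate 1, 2 or 3 was left out, and 9 were called higher and none lower without rescaling. BCL2L11 was at 2.58, 3.22 and 3.04 TPM at 24 h and 3.85, 3.73 and 3.72 TPM at 72 h (log2 difference 0.28, SE 0.0723, adjusted p = 0.019). PMAIP1, the BH3-only protein NOXA, was at 34.3, 40.2 and 30.4 TPM at 24 h and 59.97, 53.3 and 49.6 TPM at 72 h (log2 difference 0.63, SE 0.12, adjusted p = 0.00602). Both were higher in every 72 h library than in any 24 h library, but BCL2L11 was not called when 72 h replicate 1, 2 or 3 was left out (adjusted p = 0.0628, 0.0568 and 0.0532). The effector BAK1 rose by 0.44, and the survival genes MCL1 and BCL2L1 rose by 0.34 and 0.16, the call of BCL2L1 being lost without 72 h replicate 1, 2 or 3 with the replicate number as a block (adjusted p = 0.0613) and over protein-coding nuclear genes alone (adjusted p = 0.107). BMF, another BH3-only gene, was at 30.2, 32.8 and 34.2 TPM at 24 h and 20.2, 20.9 and 20.6 TPM at 72 h (log2 difference -0.63, SE 0.0599, adjusted p = 0.000667). BID fell by 0.25 with rescaling and was 0.11 higher without it. The effector BAX, the BH3-only BAD, BBC3 (PUMA) and BIK, BOK and the survival gene BCL2L2 were not called, with differences from -0.16 for BIK to 0.13 for BBC3.

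Most tested genes of matrix, adhesion and the TGF-beta pathway were higher at 72 h. Of 21 tested TGF-beta and activin genes, 12 were called higher and 2 lower (median 0.34). INHBA, which encodes the activin A subunit, was at 7.41, 9.36 and 8.66 TPM at 24 h and 32.6, 31.3 and 31.3 TPM at 72 h (log2 difference 1.79, SE 0.0849, adjusted p = 0.000179). Every 72 h library of INHBA lay above every 24 h library. The receptor gene TGFBR2 rose from 2.0 ± 0.31 to 4.09 ± 0.179 TPM. ID1 and ID3, inhibitors of helix-loop-helix factors and targets of BMP signalling, fell from 7.82 ± 1.45 to 3.0 ± 0.162 TPM and from 221 ± 29.4 to 118 ± 4.05 TPM. The ligand genes TGFB2 and INHBA therefore moved opposite to the ID genes within this list.

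Of the 10 mesenchymal genes tested, out of 22 listed, 8 were called higher and 1 lower (median 0.49). SPARC, a matricellular glycoprotein, was at 9.39, 9.71 and 9.34 TPM at 24 h and 31.6, 31.4 and 31.3 TPM at 72 h (log2 difference 1.63, SE 0.0434, adjusted p = 6.34e-05). VIM, the intermediate filament vimentin, was at 5.12, 4.87 and 5.1 TPM at 24 h and 16.2, 16.1 and 16.4 TPM at 72 h (log2 difference 1.52, SE 0.0444, adjusted p = 6.34e-05). FN1, fibronectin, was at 4.15, 5.04 and 5.0 TPM at 24 h and 13.4, 13.7 and 14 TPM at 72 h (log2 difference 1.36, SE 0.0754, adjusted p = 0.000223). The 72 h libraries of these genes were closely grouped and far above those at 24 h. TGM2, transglutaminase, rose from 4.28 ± 0.524 to 10.8 ± 0.386 TPM, and LOX, the collagen cross-linker, from 1.2 ± 0.189 to 2.1 ± 0.213 TPM. S100A4, a mesenchymal S100 protein, fell from 121 ± 22.2 to 51.7 ± 2.34 TPM. CDH1, the E-cadherin of epithelial cells, stood at 13.4 TPM in each 72 h library against 7.83 to 9.28 TPM at 24 h.

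Matrix and integrin genes were mostly higher: of 23 tested, 19 were called higher and 1 lower (median 0.56). HSPG2, the basement membrane proteoglycan perlecan, was at 8.88, 7.77 and 9.42 TPM at 24 h and 22.2, 23.2 and 24.6 TPM at 72 h (log2 difference 1.33, SE 0.0808, adjusted p = 0.000276). THBS1, thrombospondin 1, was at 68.6, 83.2 and 81.8 TPM at 24 h and 165, 165 and 166 TPM at 72 h (log2 difference 1.08, SE 0.0839, adjusted p = 0.000409). COL5A1 rose from 0.67 ± 0.0171 to 2.51 ± 0.0818 TPM, the fibronectin receptor subunit ITGA5 from 4.72 ± 0.494 to 9.99 ± 0.38 TPM, ITGA3 from 20.1 ± 1.36 to 37.5 ± 0.903 TPM and the laminin chain LAMC1 from 6.4 ± 0.634 to 12.3 ± 0.261 TPM. Of the 20 tested targets of YAP and TEAD, transcriptional partners that answer to cell spreading, 16 were called higher and none lower (median 0.51). The matricellular genes CCN1 and CCN2 rose from 275 ± 6.94 to 413 ± 5.96 TPM and from 17.4 ± 1.21 to 28.3 ± 0.581 TPM, CRIM1 by 0.82 and FJX1 by 1.07. Some genes are counted under several of these lists, which are not independent of each other. Of 16 tested genes of the plasminogen system and metalloproteases, 11 were called higher and 2 lower. PLAT, tissue plasminogen activator, was at 1.28, 1.12 and 1.18 TPM at 24 h and 4.27, 4.42 and 4.4 TPM at 72 h (log2 difference 1.29, SE 0.0495, adjusted p = 0.000139). The membrane protease MMP14 rose from 15.8 ± 0.925 to 39.2 ± 0.759 TPM, the metalloprotease inhibitor TIMP3 from 14 ± 0.143 to 30.2 ± 0.401 TPM and ADAM17, which sheds EGFR ligands, from 2.7 ± 0.698 to 5.76 ± 0.191 TPM. MMP7, matrilysin, fell from 1.77 ± 0.162 to 0.483 ± 0.099 TPM.

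Epithelial genes did not move as a block. Of 30 tested simple epithelial and junction genes, 14 were called higher and 7 lower (median 0.13), with 11 called lower when 24 h replicate 2 was left out and 1 without rescaling. CLDN1, a tight junction claudin, was at 21.3, 26.2 and 23.5 TPM at 24 h and 61.5, 64.3 and 61.9 TPM at 72 h (log2 difference 1.37, SE 0.0818, adjusted p = 0.000268). The desmosomal genes DSP and DSG2 rose from 12.7 ± 1.55 to 25.7 ± 0.276 TPM and from 14.1 ± 2.04 to 27.1 ± 0.343 TPM, and the P-cadherin gene CDH3 by 0.60. KRT18, the abundant simple keratin, was at 5039.7, 3797 and 4145 TPM at 24 h and 2575, 2425 and 2454 TPM at 72 h (log2 difference -0.79, SE 0.113, adjusted p = 0.0021). Keratins and stratification genes split similarly: of 13 tested, 6 were called higher and 4 lower, against 9 and 2 without rescaling. Besides KRT4, the stress keratin KRT17 was at 415, 286 and 339 TPM at 24 h and 753, 738 and 755 TPM at 72 h (log2 difference 1.12, SE 0.134, adjusted p = 0.00122). KRT6A rose from 44.1 ± 3.11 to 84.8 ± 0.428 TPM and involucrin, IVL, from 3.31 ± 0.284 to 7.66 ± 0.577 TPM. KRT13, the usual partner of KRT4 in mucosal epithelium, was at 73.5, 56.6 and 64.8 TPM at 24 h and 20.8, 20.6 and 19.6 TPM at 72 h (log2 difference -1.62, SE 0.0997, adjusted p = 0.000277), so the 2 partners moved in opposite directions. KRT6B fell from 19.3 ± 0.955 to 7.35 ± 0.963 TPM; KRT6A and KRT6B are near-identical copies, and no source used here says how reads were divided between them.

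Of 11 tested genes of mucins and secretory differentiation, 7 were called higher and 3 lower, AGR2 being 1 of the lower. Only 5 were called higher without 24 h replicate 3 or 72 h replicate 2 or 3. Without rescaling 8 were called higher and 1 lower. MUC4, a membrane mucin, was at 6.62, 8.02 and 8.75 TPM at 24 h and 18.9, 22.7 and 23.7 TPM at 72 h (log2 difference 1.37, SE 0.123, adjusted p = 0.000565). The glycosyltransferase genes ST3GAL1, GALNT6, GALNT12 and B3GNT3 rose by 0.69, 0.49, 0.46 and 0.32. Of 9 tested alveolar and airway lineage genes, 1 was called higher and 5 lower; 3 were called lower without 24 h replicate 3, 72 h replicate 1 or 72 h replicate 2, and 3 lower and 3 higher without rescaling. AGER, the receptor RAGE of alveolar type I cells, was at 6.75, 6.45 and 5.95 TPM at 24 h and 2.01, 2.33 and 1.8 TPM at 72 h (log2 difference -1.28, SE 0.081, adjusted p = 0.000295). CAV1, caveolin 1, fell from 120.5 ± 5.07 to 59.2 ± 0.461 TPM and the ciliogenesis factor FOXJ1 from 7.24 ± 0.647 to 3.96 ± 0.333 TPM. S100 proteins and metallothioneins were lower almost throughout, with none called higher and 12 lower of 15 tested (median -0.67). S100A10, the annexin A2 partner, was at 365, 313 and 300.4 TPM at 24 h and 157, 156 and 152 TPM at 72 h (log2 difference -1.06, SE 0.0832, adjusted p = 0.000411). S100A2 fell from 7.65 ± 1.98 to 2.5 ± 0.0819 TPM, S100A13 from 18.9 ± 3.36 to 9.37 ± 0.535 TPM and the metallothionein MT2A from 127 ± 29.2 to 71.8 ± 5.54 TPM. Without rescaling 8 of the 15 were called lower and none higher.

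Inflammatory and antigen presentation genes were higher in part. Of 24 tested NF-kB genes and cytokines, 15 were called higher and 2 lower (median 0.37). ICAM1, the leukocyte adhesion receptor, was at 30.5, 29.8 and 32.6 TPM at 24 h and 92.4, 95.6 and 95.6 TPM at 72 h (log2 difference 1.58, SE 0.0537, adjusted p = 9.95e-05). CSF1, the macrophage growth factor, was at 5.3, 5.34 and 5.94 TPM at 24 h and 16.4, 18 and 18.2 TPM at 72 h (log2 difference 1.50, SE 0.0663, adjusted p = 0.000165). IL11, an interleukin 6 family cytokine, was at 4.36, 3.61 and 3.35 TPM at 24 h and 11.8, 11.3 and 12.6 TPM at 72 h (log2 difference 1.44, SE 0.0912, adjusted p = 0.000295). The times did not overlap for any of these. The receptor OSMR rose from 2.93 ± 0.339 to 7.51 ± 0.159 TPM and the neutrophil chemokines CXCL8 and CXCL1 from 4.43 ± 1.17 to 10.2 ± 0.617 TPM and from 1.73 ± 0.443 to 4.09 ± 0.329 TPM. Of 19 tested MHC class I and antigen processing genes, 11 were called higher and 2 lower (median 0.32). TAPBP, tapasin, was at 19, 24.9 and 26.6 TPM at 24 h and 53.8, 55.4 and 56.2 TPM at 72 h (log2 difference 1.21, SE 0.125, adjusted p = 0.000817). HLA-B and HLA-C rose from 72.4 ± 5.89 to 133 ± 5.54 TPM and from 263 ± 25.6 to 407 ± 4.82 TPM, and ERAP1, ERAP2 and the peptide transporter TAP2 by 0.78, 0.62 and 0.65; reads of HLA genes can be shared between these polymorphic genes. Of 25 tested interferon-stimulated genes, out of 40 listed, 12 were called higher and none lower (median 0.27). Without rescaling all 25 were called higher, and with the length and GC trend removed 13 were called higher and 5 lower. IFI6 was at 5.25, 2.71 and 4.01 TPM at 24 h and 10.4, 10.8 and 10.8 TPM at 72 h (log2 difference 1.26, SE 0.183, adjusted p = 0.00228). BST2, tetherin, rose from 1.88 ± 0.58 to 4.54 ± 0.526 TPM, and OAS3, MX1, IFITM1 and IFITM2 rose by 0.62, 0.61, 0.56 and 0.70, most of them at levels of only a few TPM.

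Genes of amino acid supply and endoplasmic reticulum folding were more often higher than lower. Of 28 tested ATF4 response and amino acid genes, 20 were called higher and 3 lower (median 0.49). STC2, a secreted stanniocalcin, was at 7.47, 7.48 and 8.04 TPM at 24 h and 27.6, 25.3 and 26 TPM at 72 h (log2 difference 1.65, SE 0.0572, adjusted p = 0.000104). The cationic amino acid transporter SLC7A1 was at 2.06, 2.27 and 2.39 TPM at 24 h and 7.25, 7.44 and 7.38 TPM at 72 h (log2 difference 1.37, SE 0.0552, adjusted p = 0.000143). CHAC1, which degrades glutathione, rose from 2.14 ± 0.285 to 6.1 ± 0.491 TPM, VLDLR from 1.3 ± 0.162 to 4.2 ± 0.0501 TPM, SLC7A5, the large neutral amino acid transporter, from 89.4 ± 7.38 to 169 ± 5.15 TPM and TRIB3 from 2.02 ± 0.238 to 4.53 ± 0.11 TPM. Of 21 tested unfolded protein response and folding genes, 14 were called higher and 1 lower (median 0.30). With the length and GC trend removed 10 were called higher and 1 lower, and the list's median relative to all genes went from 0.31 to 0.14. The chaperone HYOU1 was at 38.4, 38.8 and 43.1 TPM at 24 h and 79.6, 82.3 and 81.5 TPM at 72 h (log2 difference 1.00, SE 0.0608, adjusted p = 0.000276). DNAJB9, a target of XBP1, rose from 14.8 ± 2.0 to 30.2 ± 2.28 TPM, and XBP1, PDIA4, CANX and SEL1L rose by 0.54, 0.56, 0.65 and 0.53. AGR2, a folding enzyme of the same compartment, fell over the same interval.

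Targets of NRF2, the antioxidant transcription factor, were more often lower than higher. Of 30 tested, 1 was called higher and 20 lower (median -0.35). AKR1C2, an aldo-keto reductase, was at 405, 358 and 362 TPM at 24 h and 145, 143 and 143 TPM at 72 h (log2 difference -1.37, SE 0.0637, adjusted p = 0.000169). AKR1C1 fell from 108 ± 4.46 to 45.7 ± 1.34 TPM and AKR1C3 from 40.8 ± 2.26 to 17.5 ± 0.265 TPM; these copies are near-identical and may share reads. GPX2, a glutathione peroxidase, was at 241, 215 and 226 TPM at 24 h and 94.6, 103 and 104 TPM at 72 h (log2 difference -1.17, SE 0.0675, adjusted p = 0.000243). Thioredoxin, TXN, fell from 126 ± 16 to 62.8 ± 0.50 TPM. HMOX1, heme oxygenase 1, was the only member called higher, at 24.8, 22.2 and 22.6 TPM at 24 h and 45, 44.7 and 47.9 TPM at 72 h (log2 difference 0.96, SE 0.063, adjusted p = 0.000312). The count depends on the scaling: 12 were called higher and 8 lower without rescaling, and 3 higher and 15 lower with quantile normalisation, the median of the list staying below that of all genes in both. Aldehyde dehydrogenases and plasticity markers were mixed, as 6 were called higher and 7 lower of 15 tested. Without rescaling 9 were called higher and 3 lower, and with the length and GC trend removed the list's median relative to all genes went from 0.094 to -0.17. ALDH3A1, which oxidises aldehydes and is also induced by the aryl hydrocarbon receptor, was at 324, 254 and 300.3 TPM at 24 h and 77.5, 78.7 and 82.1 TPM at 72 h (log2 difference -1.86, SE 0.0978, adjusted p = 0.00021). ALDH3A2 and ALDH3B2 fell by 0.51 and 0.58, and the surface glycoprotein CD24 from 632 ± 12 to 372 ± 6.86 TPM. SOX9, a progenitor transcription factor, was at 20.9, 21.9 and 22.4 TPM at 24 h and 55.7, 58.2 and 60.3 TPM at 72 h (log2 difference 1.38, SE 0.055, adjusted p = 0.000143). KDM5A, a histone demethylase linked to drug tolerance in PC9 cells, rose from 1.75 ± 0.173 to 2.84 ± 0.0838 TPM.

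Ribosomal protein and respiratory chain mRNAs were lower nearly without exception on the rescaled scale. All 48 listed and tested cytosolic ribosomal protein genes were called lower (median -0.66), as were 35 of 39 nuclear-encoded respiratory chain genes (median -0.54) and 10 of 13 mitochondrially encoded mRNAs (median -0.52), with none called higher. RPL7, of the large subunit, was at 151, 129 and 124 TPM at 24 h and 59.9, 57.8 and 60.5 TPM at 72 h (log2 difference -1.16, SE 0.0838, adjusted p = 0.000373). RPS15, of the small subunit, was at 781, 473 and 609.9 TPM at 24 h and 336, 352 and 354 TPM at 72 h (log2 difference -0.81, SE 0.177, adjusted p = 0.0100). In both, replicate 1 was the highest 24 h library, and without it the median of the ribosomal list relative to all genes went from -0.65 to -0.54 with all 48 still called. RPL5, RPL11, RPL38 and RPS14 fell by 0.88, 0.96, 0.93 and 0.81. UQCRB, of complex III, was at 111, 107 and 91.2 TPM at 24 h and 48.2, 48.7 and 44.9 TPM at 72 h (log2 difference -1.11, SE 0.0884, adjusted p = 0.000433). The ATP synthase genes ATP5PD, ATP5F1C and ATP5PO fell by 0.89, 0.87 and 0.73, NDUFB10 of complex I by 0.90 and COX5B of complex IV by 0.70. MT-ND6, MT-ND3 and MT-CO2, encoded in the mitochondrial genome, fell from 15006 ± 973 to 6826 ± 78.5 TPM, from 33565 ± 4599 to 16546 ± 711 TPM and from 90027 ± 4135 to 49678 ± 1073 TPM. Reads may be divided between genes of these lists and their pseudogenes, which was not tested.

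These transcripts are short and abundant, and transcript length moved with the difference across the whole comparison: the median difference over all tested genes was -0.31 in the eighth with the shortest transcripts and 0.27 in the eighth with the longest, while by GC content the medians stayed between -0.03 and 0.03. With the length and GC trend removed, 47 of the 48 ribosomal protein genes and 35 of the 39 respiratory chain genes were still called lower, with medians relative to all genes of -0.59 and -0.45. The scaling had more effect. Without rescaling, 17 ribosomal protein genes were called lower and 1 higher, 7 respiratory chain genes lower and 4 higher, and 5 mitochondrial mRNAs lower and 1 higher. With quantile normalisation the counts were 32 and 2, 29 and 2, and 2 and 2, and the mitochondrial list's median relative to all genes turned to 0.068. The lower position of the ribosomal and respiratory lists relative to other genes was thus present under each of these treatments, and that of the mitochondrial mRNAs was not.

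**Figure D4:**
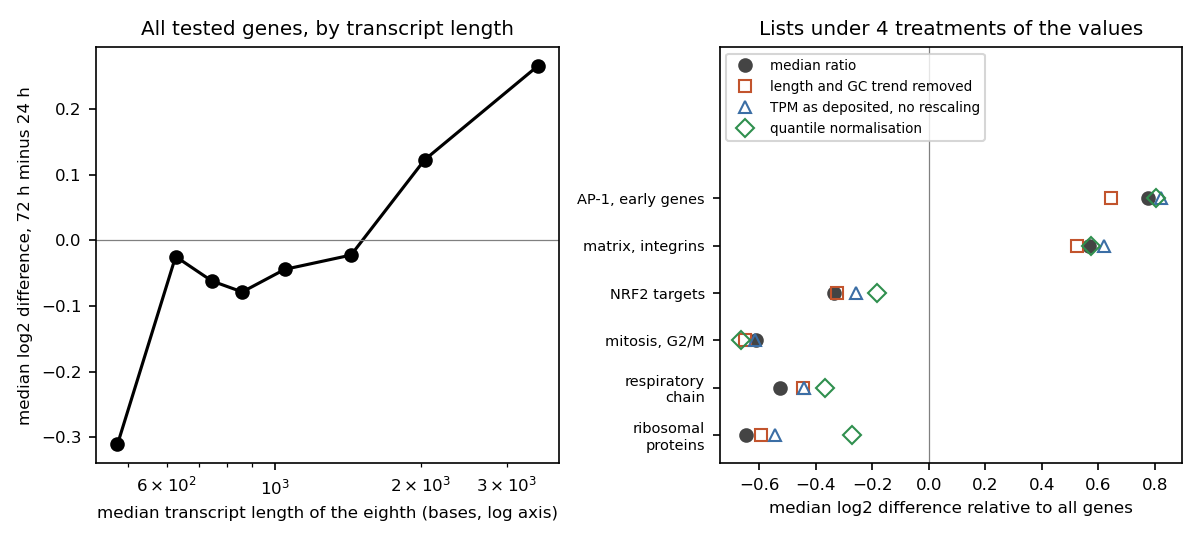
Left, median difference in log2(rescaled TPM + 1), 72 h minus 24 h, in eighths of the tested genes by transcript length (bases, log axis), rising from -0.31 to 0.27. Right, median difference of 6 lists relative to all tested genes under median-ratio rescaling and 3 other treatments of the values; each list keeps its side of 0, and the ribosomal list ranges from -0.65 to -0.27.

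The remaining lists were counted without naming members. Over all tested genes, 29.8% were called higher and 28.8% lower, and the glycolysis counts below were close to both shares. Of 15 tested Notch and Wnt genes, 11 were called higher and none lower, of 33 lysosome and autophagy genes, 19 were called higher and 3 lower, and of 29 MYC and ribosome biogenesis genes, 16 were called higher and 6 lower. Of 11 homologous recombination and Fanconi genes, 7 were called higher and 1 lower. Cholesterol synthesis and uptake (11 were called higher and 7 lower of 29), glycolysis and hypoxia response (8 were called higher and 8 lower of 28), fatty acid oxidation (7 were called higher and 6 lower of 27), heat shock chaperones (7 were called higher and 6 lower of 19), clustered histones (3 were called higher and 3 lower of 20) and acute-phase genes (6 were called higher and 5 lower of 14) had medians between -0.12 and 0.10. Without rescaling none of the first 5 of these lists had a member called lower, and the members called higher were 22, 22, 20, 14 and 9 in that order. Acute-phase genes were then 9 higher and 2 lower. The only tested MHC class II gene was called lower, and of the 4 tested markers of fibroblasts, endothelium and blood, 3 were called higher and 1 lower.

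**Figure D5:**
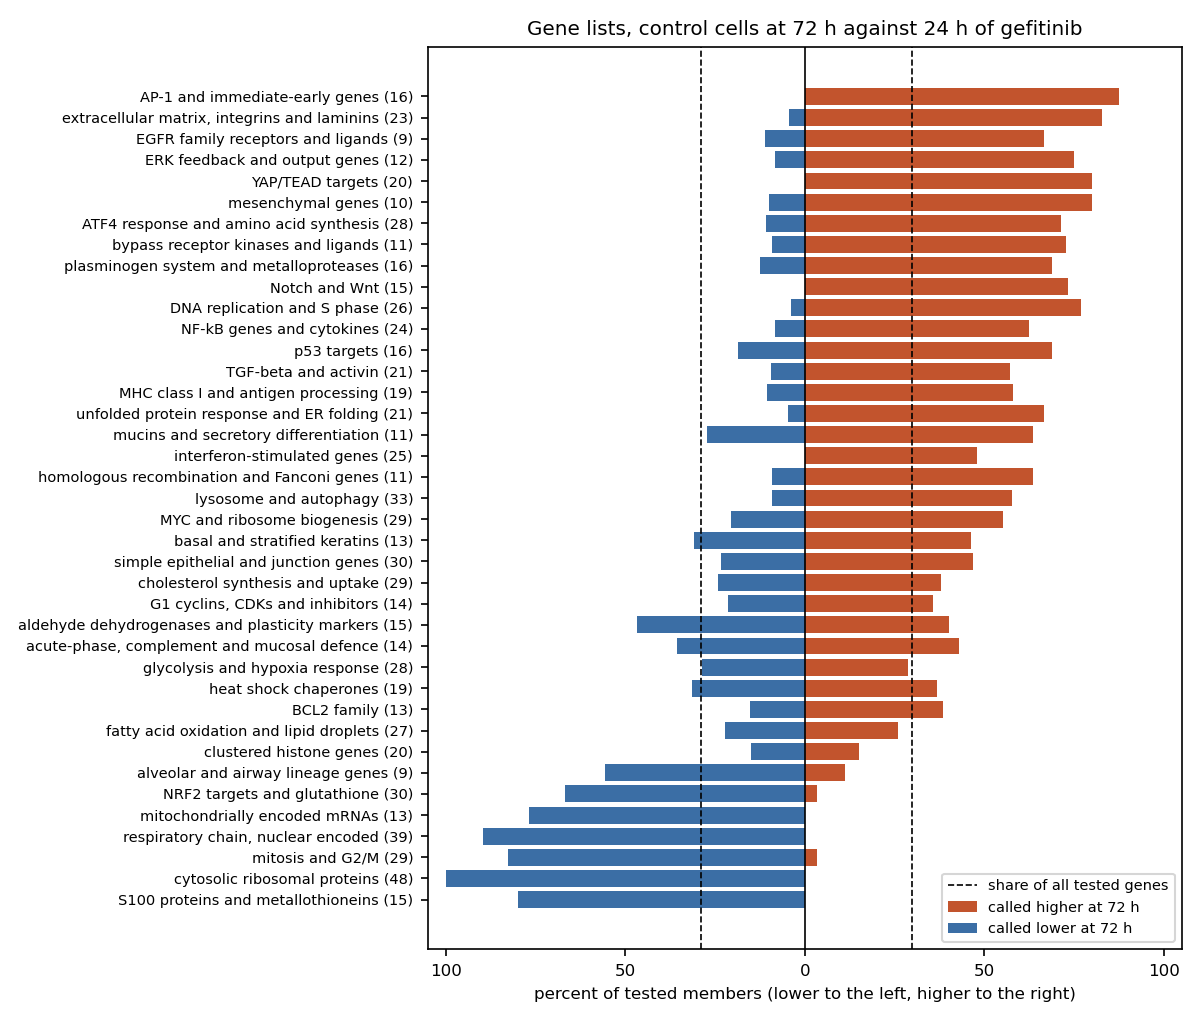
Percent of the tested members called higher (right) or lower (left) at 72 h in each gene list with at least 9 tested members, with lists ordered by their median difference and the number tested in parentheses; dashed lines give the shares over all tested genes, 29.8% and 28.8%. The AP-1 and matrix lists extend furthest to the right and ribosomal protein, respiratory chain and G2/M lists furthest to the left; lists share some members.

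For several of these genes the levels in the engineered cells, on the same scale, lay outside the range of both control groups. They are set side by side without a test, were chosen after their values were seen, and the knockdown and overexpressing cells share their controls with the comparison above. KRT4 averaged 0.0134 ± 0.0118 TPM in the knockdown cells at 24 h and 137 ± 5.5 TPM in the overexpressing cells at 72 h. S100P averaged 2.81 ± 0.361 and 309 ± 85.8 TPM. For both genes the overexpressing cells were highest and the knockdown cells lowest of the 4 groups. VIM averaged 45 ± 1.94 TPM in the knockdown cells and 0.916 ± 0.177 TPM in the overexpressing cells, the reverse order. TGFB2 averaged 1.3 ± 0.151 and 1.08 ± 0.225 TPM, so for this gene the control cells at 72 h were the highest of the 4 groups.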

How the data were processed

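RNA-seq of 12 libraries was deposited by the authors as a table of TPM per gene, with alignment by STAR 2.7.8a to hg38 per the submitters' processing notes; no source used here gives the quantifier or strandedness. Of 30225 genes listed, those at 1 TPM or more in at least 3 of the 6 control libraries (13752) were tested. Each library was rescaled by its median ratio to the gene-wise geometric mean, and log2(value + 1) was fitted with limma 3.58.1 in R 4.3.3 (moderated test with an intensity trend, two-sided, 4 residual degrees of freedom, Benjamini-Hochberg adjustment over all tested genes). Other groups stayed out of the fit. The smallest p of an exact permutation test with 3 libraries a side is 0.1, so none was run. The fit was also run on simulated data in which far fewer genes changed than were called here. No result above rests on that run. TPM keep no read counts, so depth is unknown and no counting interval is given.

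The members and lists were chosen with earlier results of these data known, so list counts are descriptions, set beside the share over all tested genes. The text names AGR2, the 12 called genes that rose most and the 12 that fell most (without overlap, at 5 TPM or more on average in whichever group was higher), all tested members of the EGFR family, ERK and BCL2 lists, and up to 6 members with the largest differences in other lists described; exceptions are stated, and 1 gene is not reported here. Alternatives were other pseudocounts, filters, scalings, weights, a replicate block, a length and GC correction and leaving out each library. Promoters came from RefSeq on GRCh38.p14. Replicates of the same number deviated together only weakly (correlations of 0.026 to 0.067 across genes), so numbers were not taken as pairs.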

Additional observations from a re-analysis of the deposited data

How the results depend on the processing

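Counts of calls were within 1.5 times of 4103 higher and 3965 lower genes, and of 309 and 511 at 2-fold or more, under every alternative run other than these. A pseudocount of 0.1 gave 673 higher and 791 lower at 2-fold. Requiring 1 TPM in all 6 libraries gave 338 lower at 2-fold, and 5 TPM in 3 libraries gave 2403 higher, 2340 lower and 325 lower at 2-fold, with fewer genes tested. Without rescaling 7977 were higher and 1276 lower (1066 and 174 at 2-fold), so that 86.2% of calls were higher against 50.9%; 5379 genes kept their call and 274 were called the other way. Protein-coding nuclear genes alone gave 130 and 135 at 2-fold, from fewer genes, and removal of the length and GC trend gave 302 lower at 2-fold. Leaving out 1 library at a time gave 3236 to 4353 higher, 3015 to 4172 lower, 261 to 372 higher and 452 to 595 lower at 2-fold.

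With the replicate number as a block, 3765 were higher and 3677 lower, with 311 and 507 at 2-fold; the numbers are not a stated pairing, and each library correlated best with its own number only as a hint from the data. Among lists with a median over 0.25 from that of all genes, and among called genes, the reversed values were the mitochondrial mRNA median relative to all genes (0.068 with quantile normalisation, from -0.50) and, without rescaling, ERBB3 at 0.25, BID at 0.11 and RFC4 at 0.091; the cause was not tested. Of the lists with a median nearer to that of all genes, BCL2 family, fatty acid oxidation, glycolysis, aldehyde dehydrogenases, heat shock, histones and acute-phase crossed it in at least 1 setting, to between -0.17 (aldehyde dehydrogenases, length and GC removed) and 0.061 (histones, length and GC removed). Of the 187 named and called genes, 170 stayed past the threshold with the same sign in every setting run, up to 19 per gene, and 17 lost the call in at least 1. A minimum change of 1.2-fold built into the test left 1718 higher and 1707 lower genes, 296 and 470 of them at 2-fold.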
